A study of Mus musculus with 12 samples.

Results

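The genes described here are markers of tissue-resident macrophages and the growth factor axis that maintains these cells, in RNA from mouse dorsal root ganglia, the clusters of sensory nerve cell bodies beside the spinal cord. The 10 members were the rows of the count table that carry the names Cd163, Mrc1, Lyve1, Folr2, F13a1, Adgre1, Aif1, Csf1r, Csf1 and Il34, out of 54532 genes in the table. All mice were C57BL/6, and both groups received D-alanine. The genotype was CDH5-Cre for the 6 control libraries and DAAO-TGCdh5 for the 6 DAAO libraries, so the treatment alone does not separate the groups. DAAO is D-amino acid oxidase, an enzyme that makes hydrogen peroxide when it oxidises D-alanine, so the comparison asks what goes with the DAAO genotype in the ganglion when this substrate is given. The genotype labels do not spell out whether the controls carry the DAAO transgene or which Cre allele the DAAO mice carry, although the sample titles name Cdh5 and Cre in both groups. The Cdh5 promoter, for which the Cre is named, is best known from endothelial cells, the lining of blood vessels. The labels number the 6 libraries of each group but do not say that each came from a separate animal, so the p-values measure the spread between these libraries.

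Macrophages live in most tissues and clear debris, and those of the ganglion lie around the nerve cell bodies and along the vessels. The receptor tyrosine kinase CSF1R, encoded by Csf1r, is needed for the survival of most of these cells and is activated by either of its ligands, CSF1 and IL-34. Long-resident macrophages near vessels often carry scavenger and endocytic receptors such as CD163, the mannose receptor MRC1 and the hyaluronan receptor LYVE1. The membrane protein F4/80, encoded by Adgre1, and the actin-binding protein IBA1, encoded by Aif1, are used as more general macrophage markers. After nerve injury, sensory neurons make CSF1, and IL-34 is a ligand that neurons and skin cells make in health.

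Total counts ran from 13227518 to 23884927 per library, and 17002 genes were tested. Transcripts of sensory neurons were abundant in every library, with the lowest CPM (library-scaled counts) among the 12 libraries at 1458 for Prph, 253 for Scn10a and 330 for Avil. Mitochondrial transcripts made up 4.05% to 7.65% of the counts in the controls and 3.32% to 5.13% in the DAAO libraries. Libraries differed in their share of adjoining tissue. Summed CPM of 8 skeletal muscle markers reached 2554 in control 4, and that of 6 spinal cord oligodendrocyte markers reached 2546 in control 2. In 5 libraries (controls 1 and 2 and DAAO 1, 2 and 6) both Xist and Y-linked transcripts were above 10 CPM, and the labels do not say whether animals were pooled. The ratios below are also given without these libraries. Of the rest, controls 3, 5 and 6 and DAAO 3 had only Xist above 10 CPM. Control 4 and DAAO 4 and 5 had only the Y-linked transcripts above it. The groups therefore differed in this make-up, also without the 5 libraries, and its part in the results was not tested.

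None of the 10 members passed the test between the groups. All 10 passed the filter on low counts, and at an adjusted p under 0.05 edgeR's quasi-likelihood test called 0 of 10, where it called 0.753% of all genes tested. DESeq2's Wald test and limma-voom also called 0 of 10. At an unadjusted p under 0.05, edgeR called 3 of the 10 (Cd163, Adgre1 and Csf1), beside 10.3% of all genes, and DESeq2 called 2. The signs differed by role. The log2 fold change (DAAO minus control) was negative for 4 of the 5 scavenger-type markers (median -0.59 over the 5) and positive for the 3 general macrophage genes (median 0.72) and for both ligands. Over all genes tested the median was 0.00 and 50.4% were positive. Without control 2 the median of the scavenger-type markers was -0.31, with 4 of 5 negative. These were not the same genes, as Mrc1 turned positive and Folr2, at the edge of detection, turned negative. In 0 of the 10 members were all libraries of one group outside the range of the other, as they were for 1.45% of all genes. In whole ganglia, fewer cells of a type and less RNA of a gene per cell cannot be told apart.

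Among the scavenger-type markers, Cd163 encodes the haemoglobin-haptoglobin scavenger receptor (ENSMUSG00000008845, chr6:124304656-124330527 in GRCm38, plus strand). In the controls its lowest, median and highest CPM were 3.60, 12.4 and 30.5, and in the DAAO libraries 5.90, 7.61 and 11.4. Controls 2, 3 and 5 were above every DAAO library and control 4 was below all of them, so the groups overlapped, although 6 of 6 DAAO libraries lay below the control median. For 12.3% of all genes 6 of 6 lay above it, and the share with 6 of 6 below was not counted. Mean CPM was 16.2 ± 10.5 (SD, n = 6) in the controls and 8.19 ± 2.27 (SD, n = 6) in the DAAO libraries, a log2 fold change of -0.98 ± 0.39 (SE) with an unadjusted p of 0.0242 and an adjusted p of 0.387. Its spread also differed in size, with a coefficient of variation of 64.9% in the controls and 27.8% in the DAAO libraries.

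Mrc1 encodes the mannose receptor, which takes up glycoproteins (ENSMUSG00000026712, chr2:14229392-14332057, plus strand). Its lowest, median and highest CPM were 9.03, 23.6 and 39.2 in the controls and 10.9, 20.7 and 38.0 in the DAAO libraries. The ranges were nearly the same, with control 4 lowest and control 2 highest among the controls and DAAO 4 lowest and DAAO 3 highest in the other group. Its log2 fold change of -0.16 ± 0.37 (SE) had an adjusted p of 0.950 and a 95% interval from -0.94 to 0.63. Without control 2 it was 0.04, so its sign rests on that library.

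F13a1 encodes the A chain of coagulation factor XIII, a transglutaminase that macrophages also make (ENSMUSG00000039109, chr13:36867178-37050244, minus strand). Its lowest, median and highest CPM were 3.51, 16.1 and 34.2 in the controls and 6.43, 10.3 and 19.1 in the DAAO libraries. Controls 2, 3 and 5 were above every DAAO library, and control 4 was again the lowest of all 12. Its log2 fold change was -0.60 ± 0.50 (SE), with an adjusted p of 0.771 and a 95% interval from -1.69 to 0.48.

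Lyve1 encodes a hyaluronan receptor shared by perivascular macrophages and lymphatic endothelium (ENSMUSG00000030787, chr7:110850607-110863239, minus strand). Its CPM was 1.76, 8.5 and 14.6 (lowest, median and highest) in the controls and 2.92, 5.94 and 7.34 in the DAAO libraries. All 6 DAAO libraries lay below the control median, a pattern whose share over all genes was not counted. Control 6 was below all of them and control 4 within their range. For Lyve1 the log2 fold change was -0.59 ± 0.38 (SE), with an adjusted p of 0.653 and a 95% interval from -1.41 to 0.22. Of 6 lymphatic endothelium markers 4 were tested and none changed (0 at an unadjusted p under 0.05, and 0 with DESeq2). Their median log2 fold change was 0.10 (-0.01 without control 5 and -0.02 without DAAO 1), with summed CPM of 98.8 to 129 in the controls and 99.0 to 163 in the DAAO libraries. Most of this sum was Reln (mean CPM 83.0 in the controls and 93.2 in the DAAO libraries) and Pdpn (29.4 and 32.7). Prox1 (2.65 and 1.95, log2 fold change -0.44) and Flt4 (1.80 and 1.87, log2 fold change 0.06) were low, so the sum says little about them. The part of lymphatic vessels in the Lyve1 values was not tested.

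Folr2 encodes the folate receptor beta (ENSMUSG00000032725, chr7:101839988-101857194, minus strand) and was at the edge of detection. It had 83 counts over the 6 controls and 80 over the 6 DAAO libraries, of which 52 were in DAAO 3. It had 0 counts in control 6, DAAO 4 and DAAO 5, where a count of 0 allows up to 0.240, 0.163 and 0.126 CPM (3 counts of the total, covering counting error only). A log2 fold change of 0.04 ± 1.04 (SE), with an adjusted p of 0.998, had a 95% interval from -2.15 to 2.23, so large differences in either direction were not detectable at this depth. Part of Folr2 overlaps the antisense gene Gm10602, which had 234 counts beside 163 for Folr2, and without a stated strand setting reads of the overlap cannot be told apart.

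**Figure D1:**
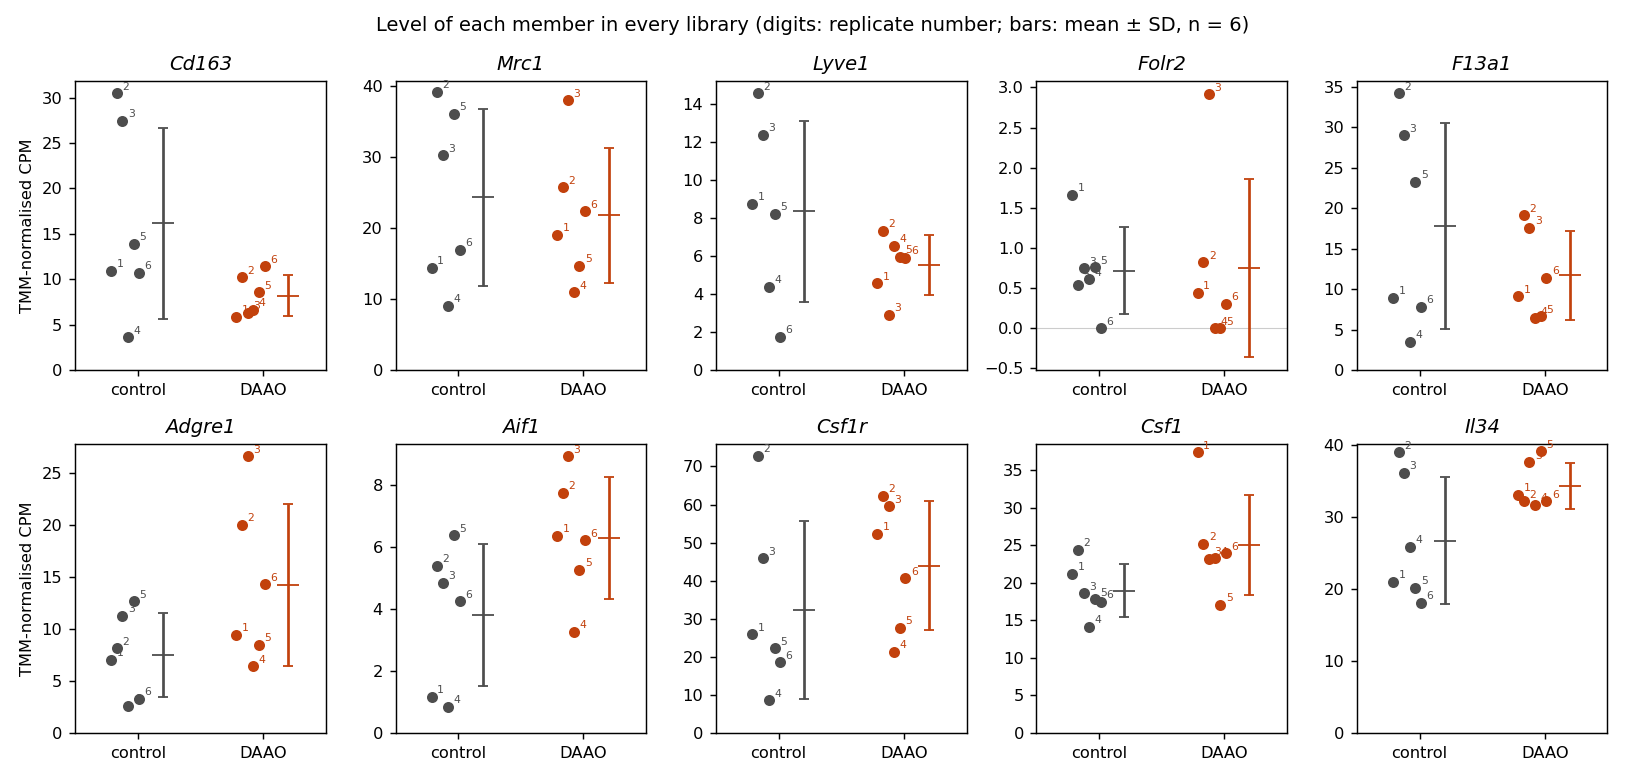
CPM of the 10 members (y axis of each panel, scaled by TMM factors) in the 6 control and 6 DAAO libraries; points are libraries, and the bar is the mean with its SD, whose lower end for Folr2 in the DAAO libraries runs below 0. The groups overlap in every panel, the DAAO points of Cd163 are confined to 5.90 to 11.4 CPM, and those of Il34 to 31.7 to 39.1 CPM.

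The general macrophage genes stood on the other side. Csf1r encodes the shared receptor of both ligands (ENSMUSG00000024621, chr18:61105572-61132149, plus strand). Its lowest, median and highest CPM were 8.52, 24.1 and 72.8 in the controls and 21.3, 46.4 and 62.3 in the DAAO libraries. Control 2 had the highest value of all 12 libraries and control 4 the lowest, and 5 of 6 DAAO libraries were above the control median. The receptor's log2 fold change was 0.44 ± 0.46 (SE), with an adjusted p of 0.841 and a 95% interval from -0.55 to 1.43. Without control 2 it was 0.86 and without control 4 it was 0.24. The 3′ end of Csf1r overlaps Hmgxb3 on the opposite strand, a gene with 4906 counts beside 8405 for Csf1r and a log2 fold change of 0.00 (adjusted p = 0.999), so a share of these reads cannot be assigned with certainty.

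Adgre1 encodes F4/80, the adhesion receptor that defines most mouse macrophages (ENSMUSG00000004730, chr17:57358691-57483527, plus strand). Its lowest, median and highest CPM were 2.62, 7.59 and 12.7 in the controls and 6.43, 11.9 and 26.6 in the DAAO libraries. DAAO 2, 3 and 6 were above every control, and the other three were within the control range. Mean CPM was 7.51 ± 4.08 (SD, n = 6) and 14.2 ± 7.80 (SD, n = 6), a log2 fold change of 0.92 ± 0.41 (SE) with an unadjusted p of 0.0425 and an adjusted p of 0.464.

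Aif1 encodes IBA1, a calcium- and actin-binding protein of macrophages and microglia (ENSMUSG00000024397, chr17:35170991-35176068, minus strand). Its CPM was 0.842, 4.54 and 6.37 in the controls and 3.27, 6.28 and 8.92 in the DAAO libraries (lowest, median and highest). Controls 1 and 4 were low, and DAAO 2 and 3 were above every control. Aif1 had a log2 fold change of 0.72 ± 0.43 (SE), with an adjusted p of 0.613 and a 95% interval from -0.18 to 1.63.

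Of the ligands, Csf1 encodes macrophage colony-stimulating factor (ENSMUSG00000014599, chr3:107741048-107760469, minus strand). Its lowest, median and highest CPM were 14.1, 18.2 and 24.4 in the controls and 17.1, 23.6 and 37.4 in the DAAO libraries. DAAO 1 stood well above the rest, 5 of 6 DAAO libraries were above the control median, and DAAO 5 was below it. Mean CPM was 19.0 ± 3.52 (SD, n = 6) in the controls and 25.0 ± 6.68 (SD, n = 6) in the DAAO libraries, which is 0.40 ± 0.18 (SE) on the log2 scale, with an unadjusted p of 0.0409 and an adjusted p of 0.462. Csf1 also stands in the list of 12 injured sensory neuron genes, of which 11 were tested and 2 rose, beside 0.506% of all genes. The 2 were Atf3 (log2 fold change 2.16) and Jun (0.62), both transcription factors of axon injury. The rest of the list was mixed, with 7 of the 11 positive and 4 negative in all (median 0.18).

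Il34 encodes the other ligand (ENSMUSG00000031750, chr8:110741829-110805924, minus strand). Its lowest, median and highest CPM were 18.1, 23.4 and 39.0 in the controls and 31.7, 32.6 and 39.1 in the DAAO libraries. All 6 DAAO libraries lay above the control median, as they did for 12.3% of all genes tested, and the groups overlapped because controls 2 and 3 were as high as the DAAO libraries. Mean CPM was 26.7 ± 8.82 (SD, n = 6) and 34.3 ± 3.20 (SD, n = 6), with coefficients of variation of 33.0% and 9.32%. The log2 fold change of 0.36 ± 0.18 (SE) had an adjusted p of 0.527 and a 95% interval from -0.03 to 0.75.

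**Figure D2:**
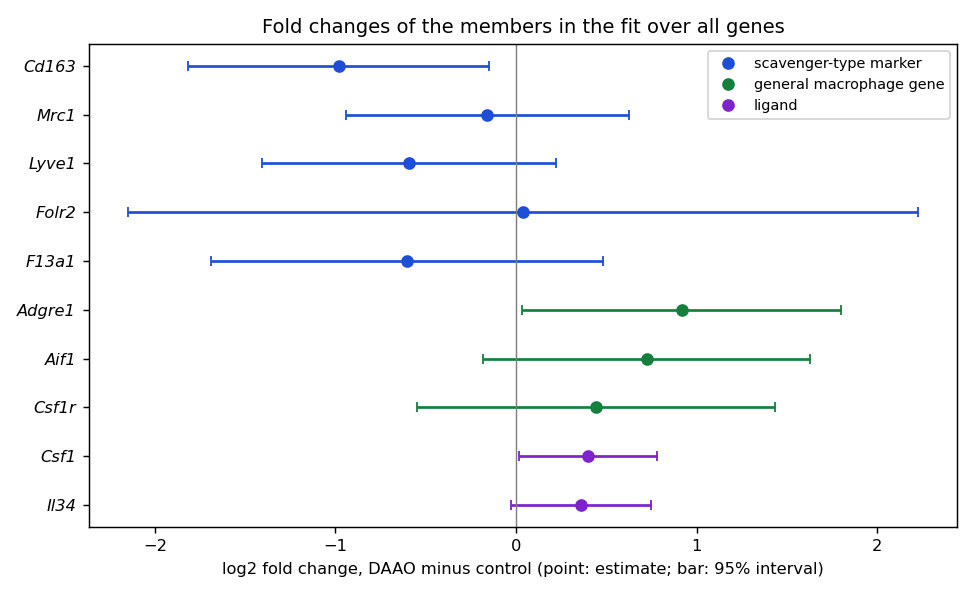
Log2 fold change of the 10 members, DAAO minus control (x axis), with the 95% interval of edgeR's quasi-likelihood fit (n = 6 per group). The intervals of Cd163 (-1.82 to -0.15), Adgre1 (0.04 to 1.80) and Csf1 (0.02 to 0.78) leave out 0 before adjustment, and no member passed after it.

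Levels were compared between genes only as CPM per kilobase of gene length. In the controls Il34 was highest at 13.6 ± 4.50 CPM per kb (SD, n = 6), followed by Csf1r at 6.62 ± 4.77. Then came Mrc1 at 3.81 ± 1.96, Csf1 at 3.59 ± 0.667, Cd163 at 2.96 ± 1.92, Lyve1 at 2.86 ± 1.64, F13a1 at 2.64 ± 1.88, Aif1 at 2.49 ± 1.49 and Adgre1 at 2.32 ± 1.26, with Folr2 last at 0.466 ± 0.349. Neighbours in this order differed beyond their spread (a mean log2 difference within libraries larger than its SD) in 3 places, between Il34 and Csf1r, Csf1r and Mrc1, and Adgre1 and Folr2. Between Mrc1 and Adgre1 no neighbouring pair differed beyond its spread, and pairs further apart were not compared. So Il34 RNA exceeded that of its receptor, and was above it in 6 of 6 controls and 6 of 6 DAAO libraries.

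The order in the DAAO libraries began with the same genes and then differed. Il34 was at 17.5 ± 1.63 CPM per kb (SD, n = 6) and Csf1r at 9.0 ± 3.47, ahead of Csf1 at 4.74 ± 1.26, Adgre1 at 4.39 ± 2.41 and Aif1 at 4.11 ± 1.28. Mrc1 at 3.42 ± 1.49, Lyve1 at 1.90 ± 0.539, F13a1 at 1.74 ± 0.814 and Cd163 at 1.5 ± 0.417 came next, and Folr2 was last at 0.484 ± 0.715. Here the step from Aif1 down to Mrc1 was beyond the spread and was seen in 5 of 6 DAAO libraries. The steps from Csf1r to Csf1 and from Cd163 to Folr2 (5 of 6 each) and from Il34 to Csf1r (6 of 6) were also beyond it. The change of rank between the groups was not tested as such.

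**Figure D3:**
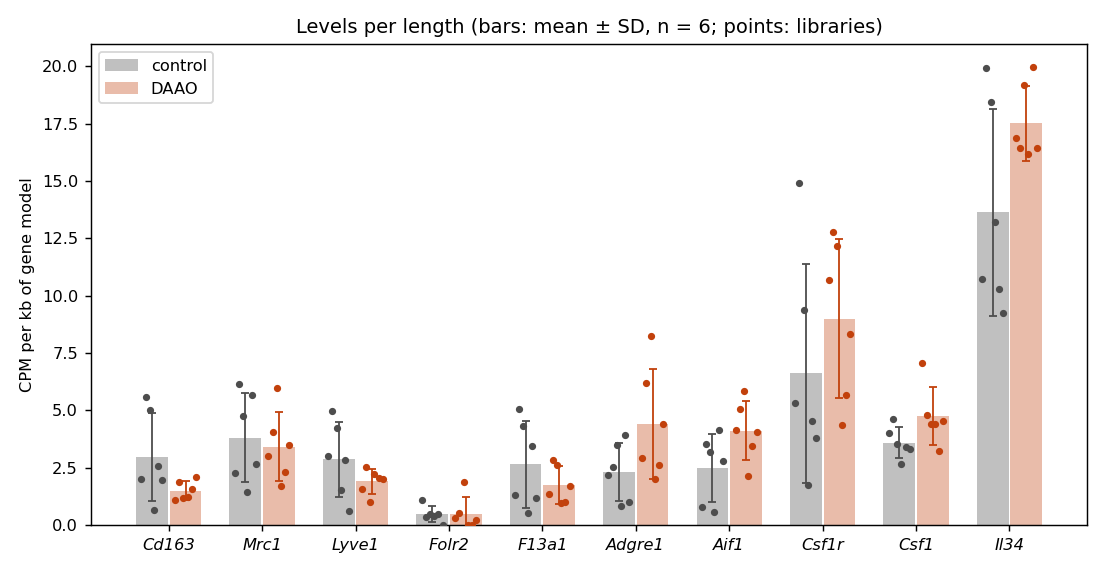
CPM per kilobase of gene length of the 10 members (y axis, linear) in control and DAAO libraries, as points with bars for the mean and SD of 6 libraries, cut at 0. Il34 lies above its receptor gene Csf1r in both groups (13.6 and 6.62 in the controls, 17.5 and 9.0 in the DAAO libraries), and Folr2 is lowest.

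Most of the macrophage genes varied with Csf1r from library to library, Lyve1 and Folr2 less so. Each scavenger marker and each ligand was therefore also set against Csf1r within the same library. The value was the log2 ratio of CPM with 0.5 added to both. For Cd163 over Csf1r the 6 controls lay between -1.24 and -0.65 and the 6 DAAO libraries between -3.13 and -1.61, so the groups did not overlap. Its mean fell by 1.34 ± 0.31 (SE), from -0.96 ± 0.27 to -2.29 ± 0.71 (SD, n = 6 each), in an exact two-sided permutation test with p = 0.0021645, the smallest that 924 splits can give, and an adjusted p of 0.00866 over the 8 ratios. For Cd163 over Csf1r, DAAO 1, 2 and 3 were at -3.04, -2.55 and -3.13, and DAAO 4, 5 and 6 at -1.61, -1.63 and -1.78. DAAO 1, 2 and 3 also had the highest Csf1r CPM of the DAAO libraries (52.2, 62.3 and 59.5). Their summed CPM of spinal cord oligodendrocyte markers was highest in that group too (726, 765 and 650). The part of tissue make-up in this ratio was not tested. The ratios were chosen with earlier results of these data known, so the p-values are not independent evidence. F13a1 over Csf1r also did not overlap, from -1.49 to 0.07 in the controls and from -2.45 to -1.65 in the DAAO libraries, and its mean fell by 0.96 ± 0.26 (SE; exact permutation p = 0.0021645, adjusted p = 0.00866).

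The same ratio was computed for each of the other 17001 genes tested, as the background for these values. Its difference had a median of -0.60, since Csf1r itself had a positive log2 fold change, and 17.8% of genes were below the control median in 6 of 6 DAAO libraries. The groups did not overlap, with the DAAO libraries lower, for 0.129% of genes, and with them higher for 0.135%. An exact p under 0.05 was reached by 3 of the 5 scavenger markers, all lower, beside 3.63% of genes that were lower and 0.429% that were higher. A lower difference than that of Cd163 was seen in 1.47% of genes and a lower one than that of F13a1 in 8.43%. Mrc1 over Csf1r lay below the control median in 6 of 6 DAAO libraries, with a fall of 0.72 ± 0.28 (SE; exact permutation p = 0.0152, adjusted p = 0.0404). However, 31.1% of genes had a lower difference than Mrc1, and its call was lost with a pseudocount of 2 (adjusted p = 0.0577) and without any 1 of controls 3, 4, 5 and 6 or DAAO 1, 2, 4, 5 and 6 (adjusted p from 0.0519 to 0.133).

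The other ratios to the receptor did not pass. The difference was -1.0 ± 0.48 (SE) for Lyve1 (exact permutation p = 0.0693, adjusted p = 0.139) and -0.84 ± 0.54 for Folr2 (exact permutation p = 0.147, adjusted p = 0.235). For the ligands it was -0.27 ± 0.40 for Csf1 over Csf1r (exact permutation p = 0.528) and -0.23 ± 0.43 for Il34 over Csf1r (exact permutation p = 0.636). The ratio of the ligands to each other, Csf1 over Il34, differed by -0.04 ± 0.25 (SE; exact permutation p = 0.883), so neither ligand shifted detectably against the other.

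The scavenger markers were also set against the other general macrophage genes. With Adgre1 in place of Csf1r, a choice added after seeing the data, the differences were -1.60 for Cd163, -1.22 for F13a1 and -0.98 for Mrc1 (adjusted p = 0.00361 each over 5 ratios, exact permutation test), and those of Lyve1 (-1.26, adjusted p = 0.0216) and Folr2 (-1.10, adjusted p = 0.0162) passed as well. With Aif1 they were -1.54 for Cd163 and -0.93 for Mrc1 (adjusted p = 0.0108 each) and -1.17 for F13a1 (adjusted p = 0.0180), while Lyve1 (-1.20, adjusted p = 0.10) and Folr2 (-1.04, adjusted p = 0.156) did not pass. Most genes had a negative difference against these denominators too, with a median difference over all genes of -0.87 for Adgre1 and -0.81 for Aif1, and an exact p under 0.05 on the lower side for 17.4% and 18.2% of genes. A change of denominator shifts every gene alike, so the shares of genes with a lower difference than Cd163 (1.47%), F13a1 (8.43%) and Mrc1 (31.1%) were the same as with Csf1r. For Lyve1 the share was 6.95% and for Folr2 17.1%. Without controls 1 and 2 and DAAO 1, 2 and 6, the libraries with both Xist and Y-linked transcripts, the difference in the ratio to Csf1r was -1.30 for Cd163, -1.05 for F13a1 and -0.83 for Mrc1. The 35 splits of the remaining 7 libraries gave an adjusted p of 0.152 for each.

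**Figure D4:**
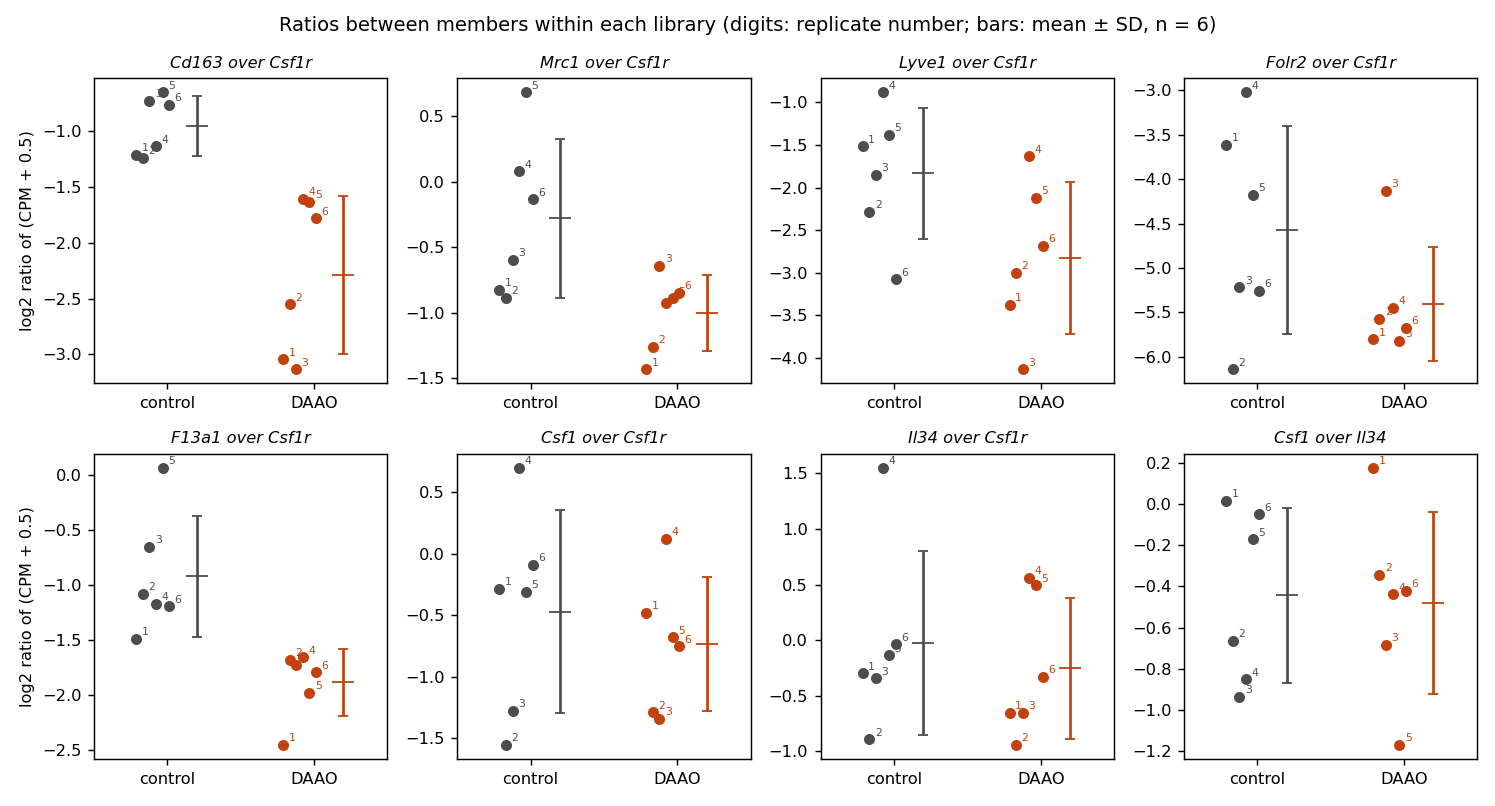
Log2 ratio of CPM (0.5 added to both) within each library (y axis) for the 8 pairs of members, in 6 control and 6 DAAO libraries, with the group mean and SD. Cd163 over Csf1r and F13a1 over Csf1r are the pairs in which the groups do not overlap, and Csf1 over Il34 differs by -0.04 between the group means.

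Members were also compared by how their log2 CPM varied among libraries of the same group, as the Pearson correlation of deviations from the group mean over 12 libraries. These values are descriptions, since the libraries share depth and tissue make-up with every gene. The scavenger markers Mrc1 and F13a1 varied together most closely (r = 0.95), Mrc1 with Adgre1 and with Aif1 at r = 0.89 each, and Cd163 with F13a1 at r = 0.83. Csf1r correlated with F13a1 at 0.89, Mrc1 at 0.83, Cd163 at 0.80, Adgre1 at 0.73 and Aif1 at 0.69. Lyve1 and Folr2 followed Csf1r less closely (0.47 and 0.46) and hardly varied with Aif1 (0.11 and 0.10). Yet 136 genes were more like Csf1r than F13a1 was, out of 13143 genes of sufficient level. The 5 closest were Trf, which encodes transferrin (r = 0.98), Eln, which encodes elastin (0.98), and the matrix genes Efemp2, Mmp2 and Pcolce (0.97 each).

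Those neighbours are genes of connective tissue and glia rather than of macrophages, and the connective tissue markers moved with Csf1r. Of 9 fibroblast and nerve sheath markers, 9 were tested, 8 were positive (median 0.46) and none changed (1 had an unadjusted p under 0.05, and DESeq2 called none); their summed CPM ran from 749 in control 4 to 3225 in control 2 and from 1594 to 3534, in DAAO 3. Among the controls, control 4 and control 2 were also lowest and highest for the summed CPM of the scavenger members (21.2 and 119). The same held for the general members (12.0 and 86.3), although DAAO 3 (95.1) and DAAO 2 (90.1) were above control 2 for these. Summed CPM of the spinal cord oligodendrocyte markers ran the same way, from 47.5 in control 4 to 2546 in control 2. Among the DAAO libraries it ran from 140 in DAAO 4 to 765 in DAAO 2, which were also lowest and highest for Csf1r (21.3 and 62.3 CPM). The parts of nerve sheath and of spinal cord tissue in the levels of the members were not tested.

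The ligands had other neighbours. Among the genes closest to Csf1 were Erbb2, a growth factor receptor kinase (r = 0.94), Sulf2, a heparan sulfate sulfatase (0.93), and the collagen gene Col5a2 (0.88), then the glutamate transporter gene Slc1a1 (0.86). Of these, Col5a2 rose, with a log2 fold change of 1.32 ± 0.17 (SE) and an adjusted p of 0.000844. Closest to Il34 were Svip (0.90), the kinase gene Fes, the adaptor gene Ticam1, the chaperonin-like gene Mkks and the paraoxonase gene Pon2 (0.87 each), none of which changed. Csf1 and Il34 hardly varied together (r = 0.10).

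RefSeq promoters of the GRCm38.p6 build were matched to 6 of the members, with 8 starts in all; Lyve1, Adgre1, Csf1r and Il34 had no entry. The 250 bases before the start are shown for Mrc1 and F13a1, the pair that varied together most closely, and for Cd163, whose ratio to Csf1r differed most. Capitals mark GAGGAA, the core that the macrophage factor PU.1 binds, on either strand (TTCCTC when read on the other). The regions are chr2:14229164-14229413 on the plus strand for Mrc1, chr13:37050245-37050494 on the minus strand for F13a1 and chr6:124304401-124304650 on the plus strand for Cd163.
Mrc1: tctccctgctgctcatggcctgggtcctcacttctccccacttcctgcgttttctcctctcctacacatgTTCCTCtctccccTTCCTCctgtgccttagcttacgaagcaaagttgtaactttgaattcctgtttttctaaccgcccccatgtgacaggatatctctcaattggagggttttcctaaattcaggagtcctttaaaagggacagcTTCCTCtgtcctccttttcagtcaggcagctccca
F13a1: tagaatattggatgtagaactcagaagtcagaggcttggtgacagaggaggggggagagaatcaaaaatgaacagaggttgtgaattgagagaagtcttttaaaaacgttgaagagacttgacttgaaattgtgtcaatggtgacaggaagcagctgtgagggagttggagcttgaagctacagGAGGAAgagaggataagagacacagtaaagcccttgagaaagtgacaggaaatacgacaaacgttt
Cd163: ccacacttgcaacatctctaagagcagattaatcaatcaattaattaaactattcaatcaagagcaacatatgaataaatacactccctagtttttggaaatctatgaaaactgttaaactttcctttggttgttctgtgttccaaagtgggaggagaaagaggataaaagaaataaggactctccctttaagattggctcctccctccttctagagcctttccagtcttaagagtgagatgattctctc
Mrc1 held 3 matches, 180 to 175, 167 to 162 and 35 to 30 bases before the start, and F13a1 held 1 at its first start, 66 to 61 bases before it. Cd163 held none, and Aif1 held 1 match 7 to 2 bases before its start. The core was present in 3 of the 8 promoters, for 3 of the 6 matched members, and in 23.3% of all 32851 promoters of this length. Counts of members take a match at any start of a gene, while the shares over all promoters count each start. The C/EBP pattern TTNNGNAA was found for 3 of the 6 (36.8% of all promoters) and the MAF recognition core TGCTGA for 1, Folr2 (16.1% of all promoters); no match of one of these motifs overlapped a match of another in the promoters shown. A match is a description of the letters and not evidence of binding.

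Other genes of the same cells and pathway were counted from lists chosen with earlier results of these data known. Of 18 further resident macrophage markers 14 were tested, 1 rose and none fell, beside 0.506% and 0.247% of all genes. Their median log2 fold change of -0.12 turned to 0.08 without control 2. The gene that rose was Ms4a7, a membrane-spanning gene of macrophages, from 3.02 ± 1.30 to 13 ± 6.40 CPM (SD, n = 6 each), which is 2.11 ± 0.36 (SE) on the log2 scale, with an adjusted p of 0.00783. The lectin gene Mgl2 was at the other end, with 8.81 ± 4.42 and 3.62 ± 2.25 CPM (-1.28 ± 0.42 SE on the log2 scale, adjusted p = 0.228). Stab1, a scavenger receptor gene, was positive (0.78, adjusted p = 0.170) and did not pass.

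Of 24 further general macrophage markers, all tested, 22 were positive and 3 rose, beside 50.4% and 0.506% of all genes. Their median log2 fold change was 1.19, and 18 had an unadjusted p under 0.05, beside 10.3% of all genes. DESeq2 called 9 of them, where it called 362 of the 17002 genes. Mpeg1, the gene of the pore-forming protein perforin-2, rose from 18.3 ± 8.07 to 110 ± 51.0 CPM (SD, n = 6 each; log2 fold change 2.59 ± 0.37 SE, adjusted p = 0.00530). Trem2, a lipid-sensing receptor gene, rose from 4.33 ± 3.43 to 33.0 ± 16.7 CPM (2.92 ± 0.48, adjusted p = 0.0118), and Lyz2, the lysozyme gene, from 113 ± 60.3 to 623 ± 384 CPM (2.46 ± 0.49, adjusted p = 0.045). The number that rose was 7 without control 2 and 1 without control 5. Trem2 lost its call without control 5 (adjusted p = 0.0501), and Lyz2 lost it without any 1 of 9 libraries (controls 1, 2, 4, 5 and 6 and DAAO 1, 2, 3 and 6, adjusted p from 0.0613 to 0.113).

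Downstream of the receptor, 20 CSF1R signalling genes were tested, 16 were positive and none changed, with a median of 0.12. Of these, 4 had an unadjusted p under 0.05, beside 10.3% of all genes, and DESeq2 called 1. The highest was Tyrobp, the DAP12 adaptor gene (1.88, adjusted p = 0.120), followed among the named ones by Vav1 (1.18), Syk (0.96) and Ptpn6 (0.93), which act in signalling of blood cells. Of 14 transcription factors of Csf1r and of myeloid cells 10 were positive and none changed, with a median of 0.19. In this list 6 had an unadjusted p under 0.05, beside the same 10.3%, and DESeq2 called 3. Without control 2, 3 of them rose, in a fit where 322 of all genes changed instead of 128. Spi1, which encodes PU.1, was at 1.37 (adjusted p = 0.0879) and Irf8 at 1.67 (adjusted p = 0.143). Tyrobp, Spi1 and Irf8 are also counted among the further general macrophage markers above, so these lists are not separate.

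IL-34 also binds receptors other than CSF1R. Besides Trem2, which is listed with them, Sdc1, the gene of the proteoglycan syndecan-1, rose from 29.7 ± 5.23 to 46.5 ± 6.41 CPM (SD, n = 6 each; 0.65 ± 0.14 SE, adjusted p = 0.0377). This call was lost without any 1 of 9 libraries (controls 3, 4, 5 and 6 and DAAO 1, 2, 3, 4 and 6, adjusted p from 0.0532 to 0.119). Without the 5 libraries that hold both Xist and Y-linked transcripts, none of Ms4a7, Mpeg1, Trem2, Lyz2 and Sdc1 passed, at log2 fold changes of 2.0, 2.52, 3.30, 2.41 and 0.53. Ptprz1, a receptor phosphatase gene, had 78.9 ± 9.61 and 59.9 ± 7.41 CPM, with every DAAO library below every control (-0.40 ± 0.12 SE on the log2 scale, adjusted p = 0.159); DESeq2 called it lower. Of 9 other haematopoietic growth factor genes 4 were tested and none changed (median -0.27, with 0 at an unadjusted p under 0.05 and 0 with DESeq2).

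**Figure D5:**
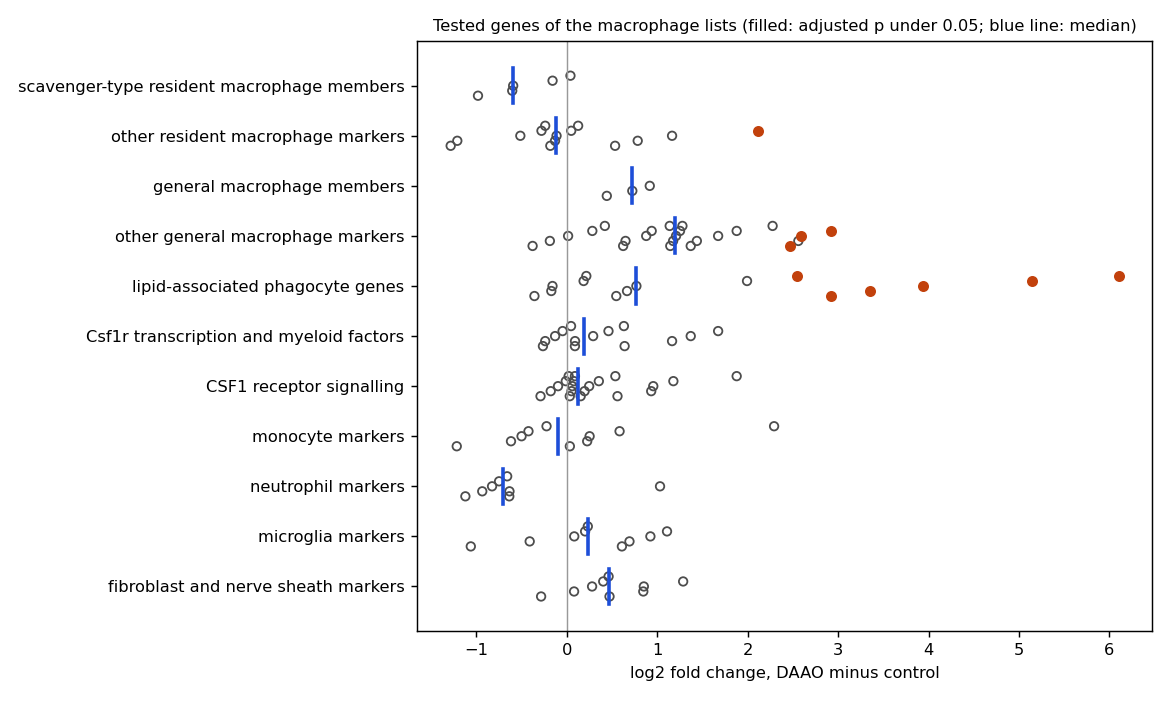
Log2 fold changes, DAAO minus control (x axis), of the genes tested in the member groups and in the lists of related genes and other cell types (y axis), with the median of each list. The medians of the 3 general macrophage members (0.72) and of the 24 other general markers (1.19, with 22 positive) lie to the right of 0. That of the 5 scavenger-type members (-0.59, or -0.31 without control 2) lies to the left, with 1 of the 5 positive.

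Markers of other cells that carry some of these genes were counted in the same way. Of 11 monocyte markers 10 were tested and none changed (5 positive, 5 negative, median -0.10, 1 at an unadjusted p under 0.05, 0 with DESeq2), with summed CPM of 60.8 to 140 in the controls and 74.8 to 121 in the DAAO libraries. Without control 2 this median was 0.29, with 7 of 10 positive. Of 9 microglia markers, which would mark spinal cord tissue as well as some ganglion macrophages, none changed (median 0.23, 2 at an unadjusted p under 0.05, 0 with DESeq2), with summed CPM of 98.0 to 194 and 134 to 238. Without control 2 their median was 0.73 and 1 rose. Of 11 neutrophil markers 8 were tested, 7 were negative (median -0.70) and none changed (1 at an unadjusted p under 0.05, 0 with DESeq2), and without control 2 the median was 0.09. Their summed CPM ran from 12.4 to 230 in the controls, highest in control 2, and from 10.1 to 138 in the DAAO libraries, highest in DAAO 3. The 5 blood markers (haemoglobin genes and Alas2) were all negative (median -0.27) and none changed (0 at an unadjusted p under 0.05, 0 with DESeq2), and without control 2 all 5 were positive (median 0.18). Their summed CPM was highest in control 2 (524), DAAO 3 (397) and control 3 (329), and control 2, control 3 and DAAO 3 were also high for the scavenger members. Control 5 was above DAAO 3 for the scavenger members (82.2 and 67.8) but low for the blood markers (89.1) and the neutrophil markers (28.4). The part of blood or neutrophils in the levels of the members was not tested. Of 6 dendritic cell markers tested Itgax rose (3.35 ± 0.49 SE, adjusted p = 0.00217), while Flt3, the growth factor receptor gene of these cells, was at -0.76 and did not pass (adjusted p = 0.0971). Itgax did not pass with limma-voom (adjusted p = 0.0508) or without the 5 libraries with both Xist and Y-linked transcripts (adjusted p = 0.212), and DESeq2 called 1 of the 6 lower, as did the fit without control 2. None of 10 proliferation genes changed (median 0.38, 0 at an unadjusted p under 0.05, 0 with DESeq2). The lipid-associated phagocyte genes overlap the general markers through Trem2 and the dendritic cell markers through Itgax, and both are among those counted here as rising. Of the 15, 6 rose, beside 0.506% of all genes, with Gpnmb, a lysosomal glycoprotein gene, at 3.94 ± 0.44 (SE, adjusted p = 0.00160) and Lgals3, the galectin-3 gene, at 2.55 ± 0.32 (SE, adjusted p = 0.00167). The number that rose was 9 with DESeq2, 3 with limma-voom and 0 without those 5 libraries (Gpnmb adjusted p = 0.381, Lgals3 adjusted p = 0.0750). Next to these the members Csf1r, Adgre1 and Aif1 had log2 fold changes of 0.44, 0.92 and 0.72, and Cd163, Lyve1 and F13a1 of -0.98, -0.59 and -0.60. Whether these changes differ from each other was not tested.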

How the data were processed

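Total RNA of dorsal root ganglia was sequenced with paired reads, per the labels' protocols. The authors deposited raw counts per gene, not normalised, for 12 libraries, with names, positions and lengths of the genes. Per the submitters' processing notes, the builds were GRCm38 or mm10, and HISAT2 2.0.5, FastQC and DESeq2 1.20.0 were used. Neither the counter and its strand setting nor the annotation is given in the sources used here. Total counts were at least 13227518 per library.

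Genes were kept with filterByExpr (minimum count 10, minimum total count 15), scaled with TMM factors and tested as 6 DAAO against 6 control libraries with the robust quasi-likelihood test of edgeR 4.0.16 (R 4.3.3). The tests were two-sided, and p-values were adjusted over 17002 genes by the Benjamini-Hochberg method, with a threshold of 0.05. To obtain the SE, the size of the log2 fold change was divided by the root of F. CPM are scaled by TMM, and per kilobase uses the deposited gene length. Alternatives used DESeq2 1.42.0, voom of limma 3.58.1, other scalings and filters, a replicate block and sets of libraries left out. The procedure was tried on simulated counts with the same dispersion for every gene. That simulation did not cover spreads as wide as those of Cd163, F13a1 and Csf1r in the controls. Ratios within libraries were compared with exact permutation tests.

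Named genes were the 10 members, up to 4 tested genes of each of 25 lists with the smallest unadjusted p, and for Csf1r, Csf1 and Il34 the 5 genes of highest correlation. A few genes that the rule selects are not reported here. Outside the rule, 3 tissue markers and the overlapping genes Hmgxb3 and Gm10602 were named. The members and lists were chosen with earlier results of these data known. No variable of age, sex or batch is given in the labels. All 66 pairs of libraries differed in counts beyond sampling noise.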

Additional observations from a re-analysis of the deposited data

Results flagged for a closer look

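Among 36 sets of 6 libraries (the members' CPM and the ratios, in each group), 3 held a library far from the other five, with a gap to the nearest library above Dixon's critical value; chance gives about 1 in 20. Folr2 was at 2.92 CPM in DAAO 3, where the next library had 0.821 CPM (gap 0.719 of the range). The log2 ratio of Folr2 to Csf1r was -4.13 in the same library and -5.45 in the next (0.780 of the range). The log2 ratio of Il34 to Csf1r was 1.55 in control 4 and -0.04 in the next library (0.650 of the range); control 4 had the lowest Csf1r CPM of all 12 libraries, 8.52.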

How the results depend on the processing

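No member passed the adjusted threshold under any of 21 alternatives, and the number with an unadjusted p under 0.05 ran from 1 to 6. Over these alternatives the log2 fold change ran from -1.19 to -0.70 for Cd163, from -0.81 to -0.36 for Lyve1, from -0.82 to -0.31 for F13a1, from 0.64 to 1.12 for Adgre1, from 0.51 to 1.04 for Aif1, from 0.24 to 0.86 for Csf1r, from 0.25 to 0.49 for Csf1 and from 0.26 to 0.53 for Il34. Folr2 was -1.33 with limma-voom, -0.77 with the replicate block, -0.33 without controls 2 and 6, and -1.21 to 0.46 with 1 library left out, and was not tested where a CPM of 1 in 6 libraries was required. Mrc1 ran from -0.39 to 0.035 with 1 library left out. The count of all genes changed, 128, was 362 with DESeq2, 648 without controls 2 and 6, 4 without controls 1 and 2 and DAAO 1, 2 and 6, and 61 to 322 with 1 library left out (80 without control 1, 322 without control 2, 77 without control 5, 78, 65, 73 and 61 without DAAO 1, 2, 3 and 6); the cause was not tested. Csf1 over Il34 differed by 0.0058 without controls 2 and 6 and by -0.17 to 0.10 with 1 library left out, and Il34 over Csf1r by -0.40 to 0.087. The ratios of Cd163 and F13a1 to Csf1r kept an adjusted p of at most 0.0260 and 0.0173 with 1 library left out. The ratios of Lyve1 (-1.42) and Folr2 (-1.40) to Csf1r passed without controls 2 and 6 (adjusted p = 0.0305 each, exact permutation test). Same-numbered libraries share only a number (deviations correlated at -0.08 to 0.21); with that replicate block 187 genes and no member changed.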
